A study of Homo sapiens with 12 samples.

Results

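The genes described here carry the symbols of mitochondrial ribosomal proteins. They are every protein-coding gene of the GENCODE v44 annotation whose symbol starts with MRPL or MRPS followed by a digit. Whether each protein is part of the ribosome was not checked. The rule found 78 of 20046 protein-coding genes, 49 with an MRPL symbol and 29 with an MRPS symbol, and all 78 had a row among the 32973 genes of the tables of unique molecular identifiers (UMIs). They lay on 21 chromosomes. The symbol does not always give the subunit: MRPS18A and MRPS30 belong to the large subunit despite their names. Cell identities were checked on a few markers. Of the 4 genes checked for HEK293T, the neurofilament gene NEFL was found in every HEK293T library, at 9.94 to 82.8 UPM (UMIs per 1000000 UMIs of the library), and was at 0 in WT but at 7.93 and 14.5 in KO eHAP1 cells. PAX2 was at 0 to 7.1 UPM in HEK293T libraries and at 14.9 and 16.0 in WT eHAP1 cells, and LHX1 at 0 to 7.95 and at 7.6 and 8.78, with higher values in KO cells for both (25.3 to 27.0 and 17.9 to 24.6). NEFM was at 0 in both LAST-seq libraries of HEK293T cells. In those cell libraries these 3 markers did not set HEK293T apart from eHAP1. In eHAP1 cells, a line of blood origin, the 5 blood genes checked (PTPRC, CD34, GATA1, SPN and HBG1) were each at or under 1.09 UPM, with PTPRC, GATA1 and HBG1 at 0.

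The mitochondrial ribosome translates the messages of the mitochondrial genome, which code for subunits of the respiratory chain and of ATP synthase. All of its proteins are made from nuclear genes, translated in the cytosol and imported into the organelle. Of the 78 genes, 48 were listed as having a bacterial counterpart and 30 as having none. The large subunit holds the centre of peptide bond formation and the exit tunnel, and the small subunit binds the message and decodes it.

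LAST-seq attaches a T7 promoter at the polyadenylated end of the original RNA and copies that RNA many times by in vitro transcription, before any reverse transcription. It was set beside CEL-seq2, which makes double-stranded cDNA before its T7 step. HEK293T is a human embryonic kidney line, grown in DMEM. It entered as single cells in pools of 10 (2 LAST-seq and 2 CEL-seq2 libraries, which differed in their spike-in mix). It also entered as 10 wells of 15 pg total RNA (LAST-seq), and as 10 wells of cell lysate (1 library for each protocol). eHAP1 is a haploid line derived from 1 clone. Its wild-type (WT) cells and cells with SCC4 knocked out (KO) by Cas9 ribonucleoprotein, a clonal line, were grown in IMDM with 10-deacetylbaccatin-III, and live haploid G1 cells were sorted by DNA content into pools of 80 in 2 batches. SCC4 is the second name of MAU2, a subunit of the loader that places cohesin on chromatin. Total RNA wells hold the same material in each well, so spread between them is technical. Lysate wells are read in the same way, though the sources do not state that 1 lysate was split among them.

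MAU2, the gene knocked out, was read first. It stood at 44.2 and 41.2 UPM in the WT batches and at 9.17 and 14.5 in the KO batches, lower in both KO batches than in either WT batch. Wells held a median of 80630 to 166468 UMIs across the 11 libraries and batches (lowest well 18022, highest 926415), and mitochondrially encoded genes took 7.47 to 21.2% of the UMIs. The 10 genes used as markers of cycling cells summed to 667 to 1589 UPM in HEK293T libraries and to 796 to 811 in eHAP1 cells. The 2 eHAP1 batches of a genotype were close to each other: the median squared difference between batches, divided by its sampling variance, was 0.214 in WT and 0.119 in KO cells over genes with at least 1000 UMIs, where sampling alone gives 0.455 and the HEK293T LAST-seq libraries gave 5.12. Over the 35 and 34 members at that depth the values were 0.228 and 0.111. Over genes with at least 100 UMIs they were 0.865 and 0.728, above sampling, and over the 72 members 0.381 and 0.445, below it. The batches thus differed by less than the sampling noise in well-counted genes and in the members, and each genotype was counted as 1 sample, no test between genotypes or lines was read, and the values of the batches are given side by side. Libraries of one protocol drew their cell barcodes from one set (the 2 LAST-seq cell libraries shared all 10, and the WT batches shared 70). The labels do not tie a barcode to a well position.

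Promoters of the members are given here because their letters can be read beside the differences described further on. RefSeq gave a window of 300 bases, from 250 before to 50 after the start (GRCh38.p14), for 69 of the 78 genes. On either strand, the letters CCGGAAG, which proteins of the ETS family bind, were in 29 of the 69 windows (42.0%) and in 14.4% of 15345 protein-coding windows. AAGATGGC, the core bound by YY1, was in 20 (29.0%) against 3.97% of all. CCAAT was in 20 (29.0%) against 36.6%, TATAAA in 2 (2.9%) against 9.63%, and the full NRF1 palindrome in 1 (1.45%) against 1.72%. The median GC content was 60.3% in the members and 63.0% in all windows. These matches describe letters and do not show binding. The 4 windows printed belong to the members with the highest ratios of KO to WT cells (MRPL51, MRPL1) and to 2 of the 3 past 1.5-fold lower in both batches (MRPL41, MRPS23), and capitals mark the matches. MRPL51 (chr12:6493213-6493512, minus strand) held CCGGAAG on both strands and AAGATGGC 22 bases into the transcript. MRPL1 (chr4:77862580-77862879, plus strand) held none of the 5. MRPL41 (chr9:137551629-137551928, plus strand) held CCAAT 4 times, and MRPS23 (chr17:57849995-57850294, minus strand) held CCGGAAG once, 14 bases before the start.
MRPL51: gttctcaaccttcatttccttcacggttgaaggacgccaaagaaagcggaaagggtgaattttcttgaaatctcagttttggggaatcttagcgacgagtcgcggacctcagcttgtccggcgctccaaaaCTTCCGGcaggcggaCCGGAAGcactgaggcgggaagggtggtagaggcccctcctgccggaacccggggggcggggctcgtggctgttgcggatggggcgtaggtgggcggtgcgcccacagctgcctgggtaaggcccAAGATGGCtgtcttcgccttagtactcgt
MRPL1: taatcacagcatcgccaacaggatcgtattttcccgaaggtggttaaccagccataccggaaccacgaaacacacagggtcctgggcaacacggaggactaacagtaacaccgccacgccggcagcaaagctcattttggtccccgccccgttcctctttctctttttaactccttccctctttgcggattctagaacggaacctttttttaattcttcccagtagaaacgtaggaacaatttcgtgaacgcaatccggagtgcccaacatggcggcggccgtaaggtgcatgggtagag
MRPL41: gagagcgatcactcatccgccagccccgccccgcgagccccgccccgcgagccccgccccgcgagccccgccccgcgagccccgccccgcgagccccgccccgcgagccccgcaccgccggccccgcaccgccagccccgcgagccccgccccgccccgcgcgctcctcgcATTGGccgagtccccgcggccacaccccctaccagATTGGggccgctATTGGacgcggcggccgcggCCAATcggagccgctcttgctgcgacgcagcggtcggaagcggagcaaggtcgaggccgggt
MRPS23: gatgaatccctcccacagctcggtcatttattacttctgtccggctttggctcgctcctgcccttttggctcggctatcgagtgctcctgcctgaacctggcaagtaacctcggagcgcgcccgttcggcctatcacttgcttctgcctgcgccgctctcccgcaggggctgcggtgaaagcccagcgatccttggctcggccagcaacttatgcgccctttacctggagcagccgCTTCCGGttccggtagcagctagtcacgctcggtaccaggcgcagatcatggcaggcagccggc

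Another protein-coding gene started in the opposite direction within 1000 bp for 17 members (21.8%), against 8.54% of all protein-coding genes. The partners included SARS2, the mitochondrial seryl-tRNA synthetase, beside MRPS12, and NDUFB5 and NDUFS6, both complex I subunits, beside MRPL47 and MRPL36. MRPL46 and MRPS11 were partners of each other on chromosome 15. In every LAST-seq library of HEK293T cells MRPL46 lay above MRPS11: in the cell libraries at 21.8 and 27.8 against 1.40 and 1.32 UPM. MRPS11 averaged only 0.2 UMI per well in both. By CEL-seq2 the partners were closer in cells, with MRPL46 at 27.7 and 16.5 and MRPS11 at 17.4 and 16.5 UPM.

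The members as a group were well detected. A UMI is counted once per molecule at the 3′ end, so values need no division by transcript length, and they are given as UPM. In the 2 LAST-seq libraries of HEK293T cells the median member stood at 65.3 and 73.9 UPM, against 17.5 and 17.9 for the median protein-coding gene with any UMI. This came to 9.3 and 11.2 UMIs per cell, and 72 of 78 members averaged 1 UMI or more in each library. A single cell showed 69 to 75 of the 78 members in these libraries and 40 to 75 in WT eHAP1 cells, whose depth ranged more widely.

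**Figure D1:**
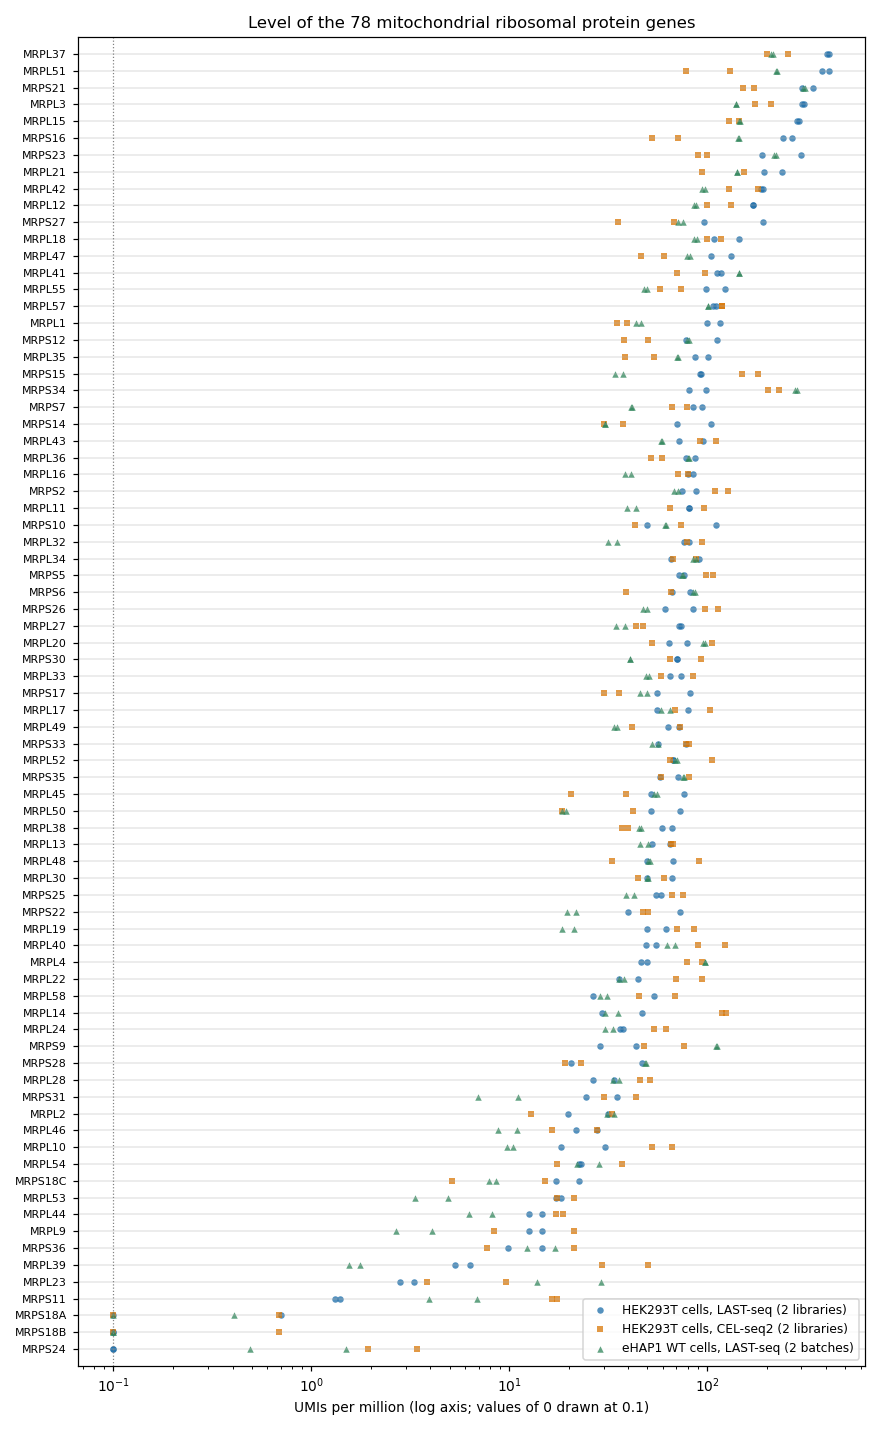
UPM (log axis) of each of the 78 genes, ordered by their mean in the 2 LAST-seq libraries of HEK293T cells. Most members lie between 10 and 400, the LAST-seq values of MRPL37 and MRPL51 are highest, and MRPS18A, MRPS18B and MRPS24 lie at or near 0 with every UMI protocol.

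The order of levels was led by a handful of genes. MRPL37 (chr1:54184041-54225464, plus strand, GENCODE v44 on GRCh38), a large-subunit protein with no bacterial relative, was at 404 and 415 UPM in the LAST-seq cell libraries, 408 in the RNA and 294 in the lysate. MRPL51 (chr12:6491886-6493841, minus strand), of the same kind, was at 382 and 415 in cells, 549 in RNA and 411 in lysate, so the cell values of these leading genes overlapped. MRPS21, a relative of bacterial S21, was at 345 and 303, and MRPL3, which lies near the peptidyl transferase centre, at 307 and 301, again overlapping. The 10 highest members held 41.6 and 40.5% of all member UMIs in LAST-seq cells, 38.3 and 38.9% in WT eHAP1 batches and 30.2 and 29.8% in CEL-seq2 cells. Processed pseudogenes of the family (79 in the annotation) carried UMIs equal to 0.434 to 1.98% of those on the members. How reads were divided between a member and such copies is uncertain.

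At the bottom of the order, 3 members were under 1 UMI per well in every UMI table. MRPS18A had 1 UMI over the 4 LAST-seq libraries of HEK293T, 6 over the 3 CEL-seq2 libraries and 13 over all eHAP1 cells. MRPS18B had 3, 1 and 0 UMIs in the same sets, and MRPS24 had 0, 11 and 36. A count of 0 in the first LAST-seq cell library allows a level of up to 2.11 UPM. All of these genes were read in full-length libraries: in the 6 SMART-seq HEK293T cells (812582 to 818780 reads each) every cell held reads of MRPS18A (19 to 78), of MRPS18B (9 to 50) and of MRPS24 (3 to 14). In the annotation, exons of RSPH9 on the other strand cover the last 300 nucleotides of the MRPS18A transcript, exons of the readthrough gene URGCP-MRPS24 on the same strand cover those of MRPS24, and no other gene's exons cover those of MRPS18B. Whether these overlaps bear on the counts was not tested.

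The third paralogue, MRPS18C, was counted by every protocol. It was at 22.5 and 17.2 UPM in LAST-seq cells, 5.15 and 15.1 in CEL-seq2 cells, and 7.87 and 8.62 in WT eHAP1 cells. MRPS18C takes the place of bacterial S18 in the small subunit, MRPS18B sits elsewhere in that subunit, and MRPS18A sits in the large subunit. The reverse case was MRPL53, a large-subunit protein particular to mitochondria: it held 86 UMIs over the LAST-seq libraries of HEK293T and 70 over the CEL-seq2 libraries, and 0 reads in all 6 SMART-seq cells, the only member of the 78 without any. Exons of CCDC142 on the same strand cover 98.7% of its last 300 nucleotides. Over the family, another gene's exons covered more than 50% of those 300 nucleotides on the same strand for 8 members and on the other strand for 9.

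The share of all UMIs that fell on the members separated the libraries. LAST-seq HEK293T cells were highest, at 0.668 and 0.701% (0.655 to 0.682 and 0.688 to 0.715, exact 95% binomial intervals). RNA wells gave 0.663%, and lysate wells 0.547%. The CEL-seq2 libraries gave 0.535 and 0.570% in cells and 0.524% in lysate. In eHAP1 cells the share was 0.510 and 0.508% for WT and 0.522 and 0.519% for KO. The cell libraries of the 2 protocols did not overlap. The intervals of the lysate libraries did (0.531 to 0.564 for LAST-seq and 0.509 to 0.540 for CEL-seq2). With 2 libraries a protocol the smallest two-sided p of an exact permutation test is 0.333. Intervals here and elsewhere cover counting error only.

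**Figure D2:**
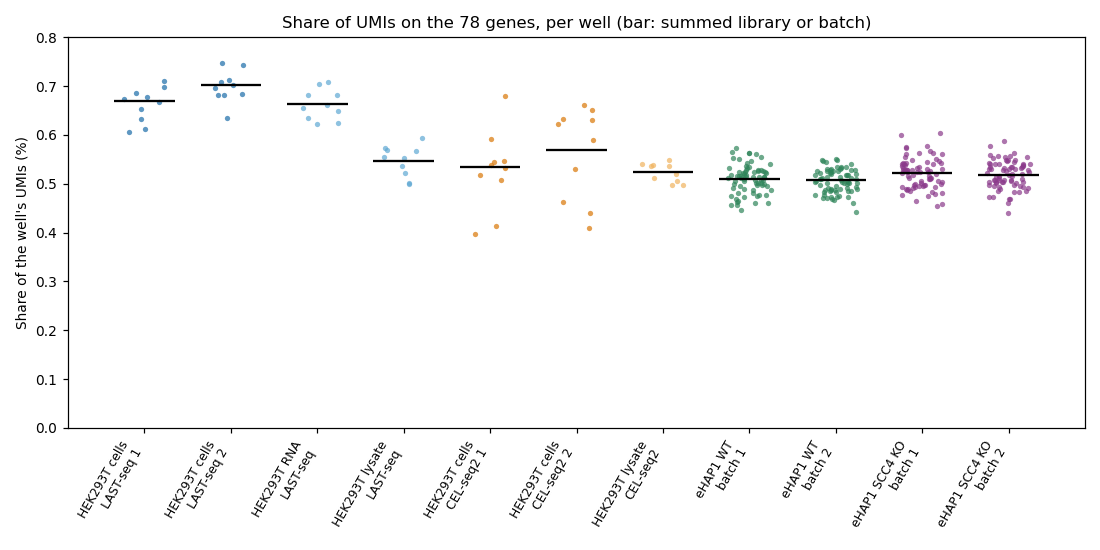
Share of each well's UMIs on the 78 genes, 1 point a well, with the summed library or batch as a bar. CEL-seq2 cells range from 0.398 to 0.680%, more widely than LAST-seq cells (0.607 to 0.748%), and eHAP1 cells of both genotypes centre near 0.51 to 0.52%.

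Large-subunit symbols took 2.04 and 1.86 times the UMIs of small-subunit symbols in LAST-seq HEK293T cells, 1.88 and 1.96 times in CEL-seq2 cells, 1.52 and 1.48 times in WT and 1.73 and 1.76 times in KO eHAP1 cells. MRPL51 alone made up 4.37 and 4.42% of member UMIs in WT and 7.33 and 7.35% in KO cells. Without it the KO share of the members was 0.484 and 0.481%, and the WT share 0.488 and 0.486%. MRPL51 is the member with the highest ratio in KO cells, and no member lower in KO cells was left out. Leaving it out had to lower the KO share more than the WT share. No interval was computed for the shares without it, so their order is not read. The ratio of large- to small-subunit symbols stayed higher in KO cells without MRPL51, at 1.53 and 1.56 against 1.41 and 1.37 in WT. It is a ratio of pooled UMIs, in which abundant genes weigh most. Per gene, the median log2 ratio of KO to WT was 0.055 over 46 MRPL and 0.114 over 25 MRPS genes. The pooled ratio is thus not read as a shift of a whole subunit.

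LAST-seq was compared with CEL-seq2 in HEK293T cells by edgeR's quasi-likelihood test on the summed UMIs of 2 libraries for each protocol. Among 74 members tested, 21 were higher in LAST-seq, where 11.3% of the 11271 genes tested were, and 4 were lower, where 14.9% of genes were (26.2% in either direction), and 49 did not pass. The median member lay at 0.32 on the log2 scale, against -0.06 for all genes. Scaling by total UMIs in place of TMM factors moved both down, to 0.01 and -0.38, so the median member stayed above the median gene but close to 0. By total UMIs, 11 members were higher (6.81% of genes) and 6 lower (19.6%). Leaving out a LAST-seq library lowered the counts of members and of all genes alike: 4 of 75 members passed without the second (7.59% of genes) and 8 of 75 without the first (10.4%). Without a CEL-seq2 library 19 of 75 (21.9%) and 22 of 74 (22.3%) passed. Mitochondrially encoded genes, which enter the total, took 16.6 and 14.3% of UMIs in the LAST-seq libraries, against 7.47 and 9.23% with CEL-seq2. By subunit symbol, 14 of 48 MRPL and 7 of 26 MRPS genes were higher, and 2 of each were lower.

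**Figure D3:**
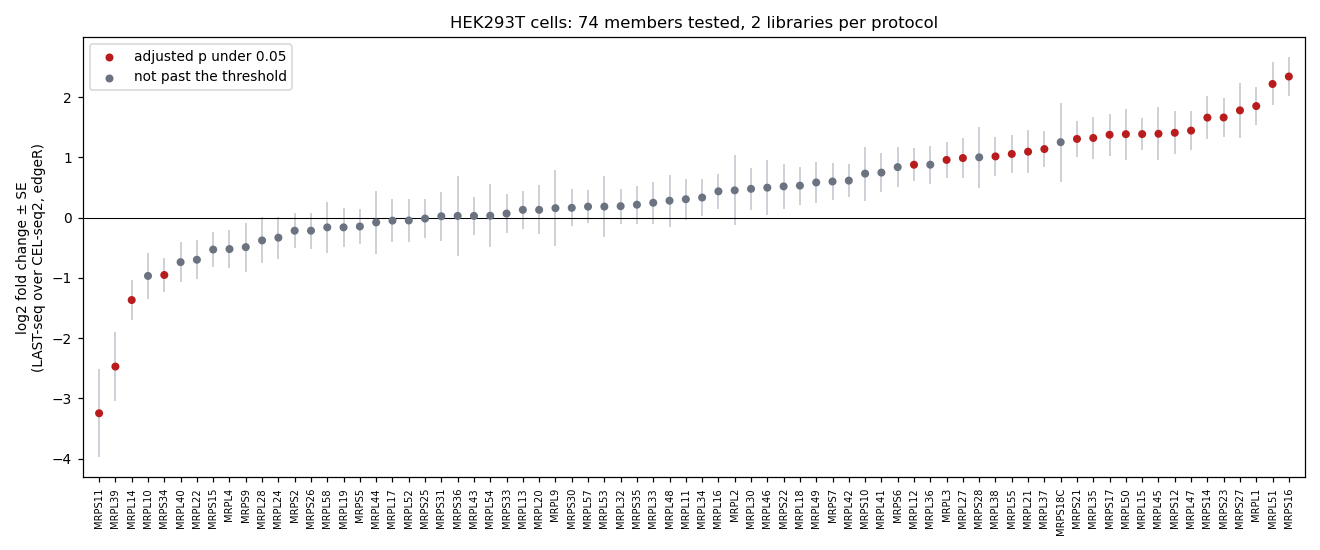
log2 fold change of LAST-seq over CEL-seq2 in HEK293T cells for 74 members (edgeR, error bars 1 standard error), in red where the adjusted p was under 0.05. MRPS16 and MRPL51 lie highest, MRPS11 and MRPL39 lowest, and 49 grey points did not pass.

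Among the genes higher in LAST-seq, MRPS16 (chr10:73248843-73252693, minus strand), a relative of bacterial S16, led. It stood at 244 and 269 UPM in LAST-seq against 52.8 and 71.4 in CEL-seq2 cells. The groups did not overlap, and the log2 change was 2.34 ± 0.32 (SE, n = 2 libraries each, edgeR adjusted p = 0.00163). MRPL51 was at 382 and 415 against 78.5 and 131, a log2 change of 2.22 ± 0.36 (edgeR adjusted p = 0.00316). MRPL1, the protein of the mobile L1 stalk, was at 99.7 and 116 against 39.3 and 35.03 (1.85 ± 0.31, edgeR adjusted p = 0.00379). These genes were among the 13 members that passed in all 4 fits on all libraries. The fits reuse the libraries on which the members were called, so this is no separate evidence. The share of all genes that passed in each of these fits was not counted. MRPS27 and MRPS23 followed. MRPS27, a pentatricopeptide repeat protein of the small subunit, differed 2-fold between LAST-seq libraries (192 and 96.7) yet stayed above its CEL-seq2 values of 35.4 and 68.0 (log2 1.78 ± 0.46, edgeR adjusted p = 0.0195). MRPS23 was at 190 and 297 against 90.1 and 99.6 (1.66 ± 0.32, edgeR adjusted p = 0.00576).

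The other members higher in LAST-seq ran from MRPS14 (log2 1.66) through MRPL47, MRPS12, MRPL45, MRPL15, MRPL50, MRPS17, MRPL35, MRPS21, MRPL37, MRPL21, MRPL55, MRPL38, MRPL27 and MRPL3 to MRPL12 (0.88), which also binds the mitochondrial RNA polymerase. In each of these 16 genes both LAST-seq libraries lay above both CEL-seq2 libraries, but the genes were picked on those same libraries. That order is thus no separate evidence, and its share over all genes was not counted. In lysate, LAST-seq was the higher protocol for 17 of the 21 members called higher in cells and the lower one for 4: MRPL3 (179 against 207 UPM), MRPL12 (105 against 124), MRPL55 (67.7 against 79.2) and MRPS12 (36.3 against 42.6). How many of all genes called higher or lower in cells kept their order in lysate was not counted. The lysate order is thus not read as particular to the members. MRPL27 was nearest the threshold, at an edgeR adjusted p of 0.0497.

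The 4 members lower in LAST-seq were MRPS11, MRPL39, MRPL14 and MRPS34. Of these, MRPS11 and MRPL39 averaged under 1 UMI per well in both LAST-seq libraries. They passed the filter on low counts only through CEL-seq2, the protocol where each is high. MRPS11, a relative of bacterial S11, was at 1.40 and 1.32 UPM in LAST-seq against 17.4 and 16.5 in CEL-seq2 (log2 -3.25 ± 0.73, edgeR adjusted p = 0.0112). It held 2 UMIs in each LAST-seq library, so its fold is poorly set. MRPL39, a relative of threonyl-tRNA synthetases in the large subunit, was at 6.32 and 5.30 against 29.6 and 50.1 (-2.47 ± 0.57, edgeR adjusted p = 0.0124). MRPL14, which lies at the face where the subunits join, was at 29.5 and 47.0 against 120 and 125 (-1.37 ± 0.34, edgeR adjusted p = 0.0163), and MRPS34 at 81.4 and 99.4 against 232 and 204 (-0.95 ± 0.28, edgeR adjusted p = 0.0308). MRPL10, which lay between MRPL14 and MRPS34 at -0.97 ± 0.39, did not pass (edgeR adjusted p = 0.0937). The lysate libraries stood in the same order for the 4 called lower: MRPS11 at 1.25 by LAST-seq against 9.46 by CEL-seq2, MRPL39 at 10.0 and 40.2, MRPL14 at 32.6 and 79.2, MRPS34 at 81.4 and 189.

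Other genes of mitochondrial translation were mixed. The shares over all genes tested, to be read beside each list, were 11.3% higher in LAST-seq and 14.9% lower. Of the 5 mitoribosome proteins with other symbols, CHCHD1 was higher in LAST-seq (99.0 and 102 against 39.3 and 57.0 UPM, edgeR adjusted p = 0.0183), DAP3, which binds GTP, was lower (51.2 and 50.3 against 146 and 105, edgeR adjusted p = 0.0389), and PTCD3, AURKAIP1 and GADD45GIP1 did not pass. Among 25 ribosome assembly factors tested, 2 were higher, ERAL1, the chaperone of the 12S rRNA (log2 1.72), and FASTKD2 (1.68), and 1 was lower, TRUB2 (-1.08). Of 14 translation factors, SLIRP, the partner of LRPPRC, was higher (1.91) and MTRFR, a rescue factor, lower (-2.05). None of 6 genes of mitochondrial transcription passed (edgeR). Of the 13 messages made in mitochondria, which this ribosome translates, 6 were higher and 1, MT-ATP8, was lower (-1.30), with MT-ND3 changing the most (3.0).

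Noise was measured as the variance of a gene's UMIs over the wells of a library divided by the variance that Poisson sampling gives at each well's depth. Sampling alone gives a mean ratio of 1. The ratio is skewed, so the median over genes then lies under 1, and further under with fewer wells. Medians somewhat under 1 are thus not read as less than sampling. In LAST-seq HEK293T cells the median member was at 0.938 and 0.906 over 72 members averaging 1 UMI or more. The median of all genes past that minimum was 1.03 in both libraries. Members and genes were not matched for level: their median means were 9.55 and 11.6 UMIs per well for members and 4.1 and 4.4 for all genes. RNA wells gave 0.933 and lysate wells 1.02 for the members. Against the lysate wells, read here as holding the same material, 36 and 34 of 70 members had the larger excess variance in cells, where 52.6 and 53.7% of genes did. In CEL-seq2 the members' medians were 1.75 and 1.71 in cells and 1.24 in lysate, with 31 of 73 and 26 of 75 members above 2 (46.1 and 43.4% of all genes), against 3 and 1 of 72 in LAST-seq (7.81 and 8.38% of all genes).

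**Figure D4:**
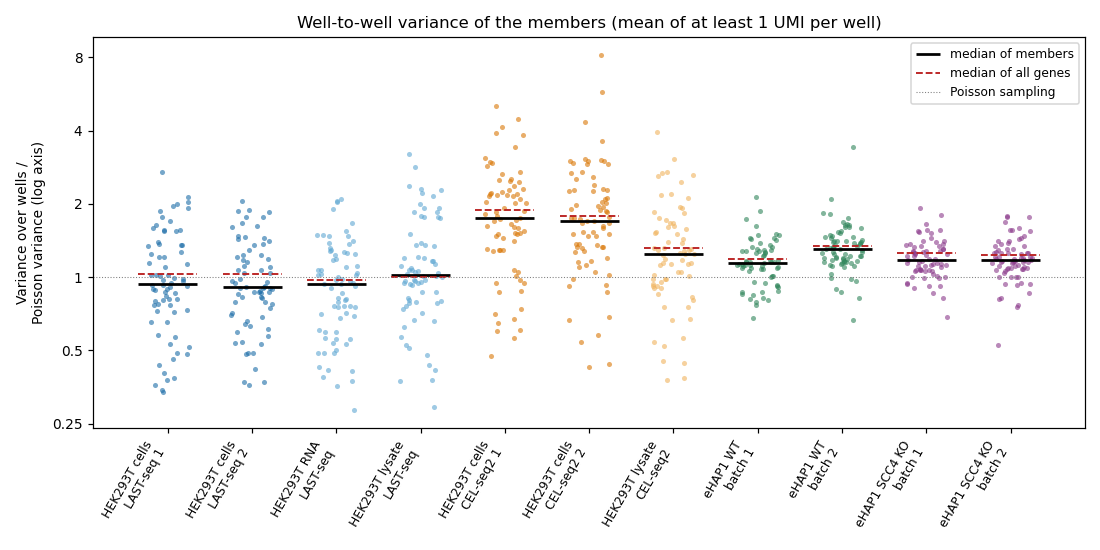
Variance over wells divided by Poisson variance (log axis) for each member averaging 1 UMI or more in a well, 1 point a gene. Black bars are medians of the members and red dashes medians of all genes: both stay near 1 in LAST-seq HEK293T libraries, lie near 1.7 to 1.9 in CEL-seq2 cells, and between 1.148 and 1.34 in eHAP1 cells.

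Summing the members shows whether they moved together from well to well. If they varied independently, the ratio of their sum would equal the weighted mean of their own ratios. In CEL-seq2 cells the sum was at 19.4 and 21.4, which is 8.72 and 9.24 times that mean, and in CEL-seq2 lysate at 0.589, or 0.411 times. In LAST-seq cells the sum was at 2.16 and 2.13 (2.09 and 2.18 times), in RNA wells at 1.54 and in lysate at 1.496. The CEL-seq2 sums moved with another protein family: over the 10 cells of each library, the members' share of UMIs had a Pearson r of 0.651 and 0.889 with the share on cytosolic ribosomal proteins, which ranged from 6.76 to 10.3% and from 6.85 to 14.3% of UMIs. In LAST-seq cells that r was 0.425 and 0.0595, and r with the mitochondrially encoded share was -0.78 and -0.56, against -0.28 and 0.51 in CEL-seq2 cells. With the cell's total UMIs, r was 0.832 and 0.369 by LAST-seq, against 0.543 and 0.369 by CEL-seq2. In RNA wells (LAST-seq) r with the cytosolic ribosomal share was 0.596, and in lysate wells 0.225 by LAST-seq and 0.497 by CEL-seq2. In the same wells r with the mitochondrially encoded share was -0.64, -0.0376 and 0.52. All these values share a library and a total and are given as a description. The part of depth and of these shares in the spread was not tested.

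In eHAP1 cells the median ratio was 1.148 and 1.30 in the WT batches and 1.17 in each KO batch, against 1.18 and 1.34 and 1.26 and 1.23 for all genes. The sum over members was at 1.63 and 1.75 in WT and 1.43 and 2.29 in KO cells, so the members' total share varied with a coefficient of variation of 4.75 to 5.97%, where counting alone gives 3.63 to 4.94%. The shares of large- and small-subunit symbols had a Pearson r of 0.105 and -0.192 over the 73 and 75 WT cells and of 0.258 and 0.245 over the 77 and 76 KO cells. Cells thinned to 50000 UMIs gave a median ratio of 1.08 in WT, against 1.22 without thinning. The ratio depends on depth, and random thinning moves it toward 1 by construction. Ratios of batches or libraries of unlike depth are thus not on the same scale. These tables may have been adjusted between batches, and what that does to the noise was not tested.

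Among the 67 members averaging 1 UMI or more in both WT batches, the excess variance, as squared coefficient of variation beyond sampling and averaged over the batches, was largest for MRPL23 (0.436), which lies at the exit of the tunnel, followed by MRPS36 (0.396), MRPS31 (0.275) and MRPL27 (0.135). The batches differed in this: MRPL23 was at -0.06 in batch 1 and 0.932 in batch 2, and MRPS36 at 0.698 and 0.0938. The lowest values were those of MRPL38, MRPS27, MRPL33 and MRPS28, all below 0 in this mean (-0.0218 to -0.00434), that is, with no spread beyond sampling. MRPS21, an abundant member, was at 0.00214 on a mean of 31.0 and 51.0 UMIs per cell. For MRPL23, 1 of 73 WT cells lacked a UMI in batch 1 and 32 of 75 in batch 2, although batch 2 was deeper, and 37 of 77 and 23 of 76 KO cells lacked one.

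HEK293T and eHAP1 WT cells were compared within LAST-seq, each line as 1 sample. The lines also differed in medium, sorting, pool size and depth, and these cannot be told apart from the line. Of 73 members that passed the filter (an average of 1 UMI or more in either line), 3 were past 2-fold higher in eHAP1 in all 4 pairs of a HEK293T library and a WT batch, where 11.6% of 10800 genes were, and 13 were past 2-fold lower, where 13.8% of genes were. In either direction it was 16 of 73, against 25.4% of genes, and with TMM factors it was 9 of 73, against 24.5%. The median log2 ratio was -0.48 for members and -0.22 for all genes (-0.27 and -0.01 with TMM factors). Of the 16, MRPL23 passed the filter only through eHAP1 (0.45 UMI per cell in HEK293T), and MRPL9 and MRPL53 only through HEK293T (0.426 and 0.52 UMI per cell in WT eHAP1), the line where each is high. Among the 69 members that reached the minimum in both lines, a filter chosen after seeing the data, 2 were higher (6.8% of genes) and 11 lower (8.66%). At any size, 44 of 73 members were lower in all 4 pairs, against 44.6% of genes, and 11 were higher, against 30.0%.

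**Figure D5:**
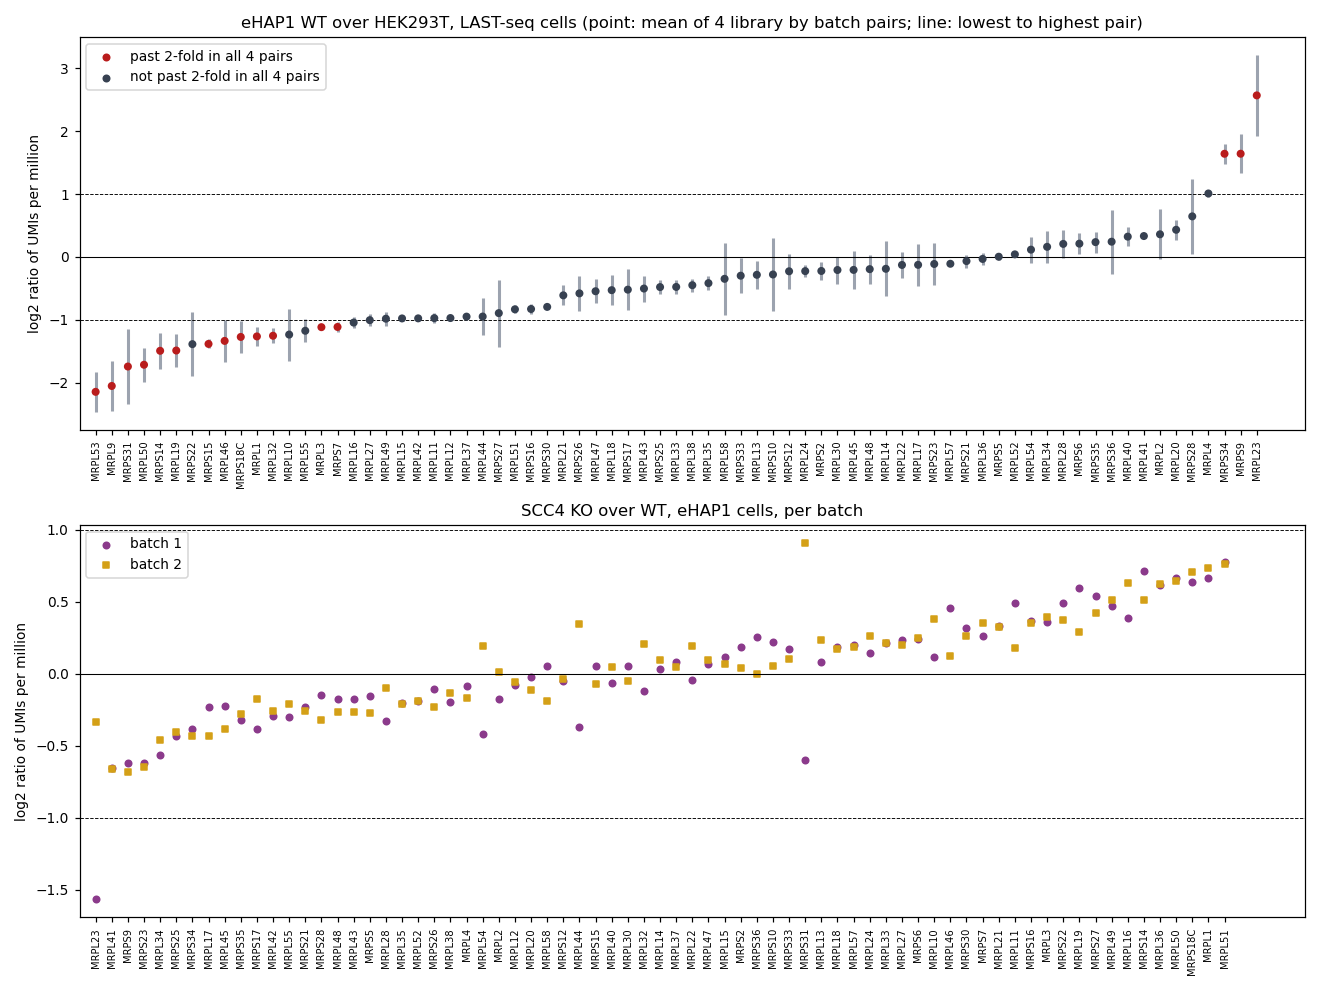
log2 ratios of UPM for eHAP1 WT over HEK293T (top, 73 members, mean and range of 4 library by batch pairs) and for SCC4 KO over WT (bottom, 71 members, 1 point a batch), with dashed lines at 2-fold. In the top panel 13 members lie below and 3 above 2-fold in every pair, and in the bottom panel no member lies past 2-fold in both batches.

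Of the 3 higher members, MRPL23 was at 2.81 and 3.31 UPM in HEK293T cells (4 and 5 UMIs), at 29.2 and 13.8 in the WT batches, and at 9.02 in HEK293T RNA and 8.77 in lysate. MRPS34 (chr16:1771890-1773150, minus strand), a small-subunit protein needed for the stability of the 12S rRNA, was at 81.4 and 99.4 in HEK293T and at 279 and 284 in eHAP1, a mean log2 ratio of 1.64 (1.48 to 1.797 over the 4 pairs). MRPS9 (chr2:105038069-105099960, plus strand), a relative of bacterial S9, was at 28.8 and 43.7 and at 112 and 111 (1.64, 1.33 to 1.95). Both also lay more than 2-fold above the RNA and lysate libraries of HEK293T, where MRPS34 was at 113 and 81.4 and MRPS9 at 37.9 and 45.1. By CEL-seq2, MRPS34 stood at 232 and 204 in HEK293T cells, near the eHAP1 values. MRPL4 (1.01) and MRPS28 (0.65) came next and were not past 2-fold in every pair.

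The 13 members lower in eHAP1 were MRPL53, MRPL9, MRPS31, MRPL50, MRPS14, MRPL19, MRPS15, MRPL46, MRPS18C, MRPL1, MRPL32, MRPL3 and MRPS7. MRPL53 went from 18.2 and 17.2 to 4.88 and 3.33 UPM (log2 -2.14), and MRPL9, a relative of bacterial L9, from 12.6 and 14.6 to 4.07 and 2.68 (-2.05). MRPS31 went from 35.1 and 24.5 to 11.1 and 6.99 (-1.74), MRPL50 from 73.0 and 52.3 to 18.5 and 19.3 (-1.71) and MRPS14 from 70.2 and 105 to 30.5 and 30.6 (-1.49). MRPL3, the most abundant of them, was at 307 and 301 in HEK293T cells and at 140 and 141 in WT eHAP1, yet its HEK293T RNA and lysate values of 188 and 179 lay closer to eHAP1 than to the HEK293T cells. When the RNA and lysate libraries were added, an alternative chosen after seeing the data, 2 members stayed higher (MRPS34, MRPS9; 7.24% of genes) and 5 stayed lower (MRPL53, MRPL9, MRPS14, MRPL46, MRPS18C; 6.66% of genes).

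Among the factors around the ribosome, FASTKD2, which binds the 16S rRNA during assembly, was at 106 and 75.5 UPM in HEK293T cells and at 0.543 and 0.244 in WT eHAP1 (0.933 and 1.199 in KO). Of 24 assembly factors, 3 were past 2-fold lower (FASTKD2, TFB1M and MTG2) and none higher. FASTKD2 and TFB1M averaged under 1 UMI per cell over the WT batches. They passed the filter only through HEK293T, the line where each is high. Of 13 translation factors, MTRFR was higher (11.9 and 4.64 to 45.3 and 53.2, with 43.8 and 42.6 in HEK293T cells by CEL-seq2) and 4 were lower, among them the initiation factors MTIF2 (61.8 and 56.3 to 11.9 and 17.2) and MTIF3. TWNK, the mitochondrial helicase, was the only one of 6 transcription and replication genes past 2-fold, and was lower. None of the 5 ribosomal proteins with other symbols was past 2-fold. Of the 13 mitochondrial messages 5 were higher, led by MT-ATP8 (log2 2.00) and MT-ND5 (1.55). For all these lists, the shares over all genes tested were 11.6% past 2-fold higher and 13.8% lower.

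SCC4 KO cells were set against WT cells batch by batch. The members' total share was 0.509% (0.506 to 0.512) in WT and 0.520% (0.517 to 0.523) in KO cells over both batches. Of 71 members tested none was past 2-fold in both batches, where 7.36% of 9793 genes were (3.72% higher and 3.65% lower). The median log2 ratio was 0.07 for members and 0.03 for all genes, the interquartile range of the members ran from -0.21 to 0.27, and that of all genes from -0.35 to 0.39. At 1.5-fold, a threshold chosen after the values were seen, 5 members were higher in both batches, where 11.2% of genes were, and 3 were lower, where 9.74% were. In sign, 33 of 71 members were higher in both batches, where 44.2% of genes were, and 27 were lower, where 39.2% were.

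MRPL51 had the highest ratio in KO cells among the 71 members. It was at 223 and 225 UPM in the WT batches (224 over both, 217 to 231 by the exact Poisson interval) and at 382 in each KO batch (382, 373 to 391), which is 1.71-fold. Over single cells the lowest, median and highest values were 83.1, 219 and 336 in WT batch 1, 142, 217 and 355 in WT batch 2, 247, 377 and 632 in KO batch 1 and 245, 379 and 540 in KO batch 2. The cells of the genotypes overlapped, though every KO cell lay above the WT medians. MRPL1 went from 46.1 and 43.7 to 73.2 and 72.9 (1.63-fold), MRPL36, a relative of bacterial L36, from 81.5 and 80.6 to 125 and 124 (1.54-fold), MRPL50 from 18.5 and 19.3 to 29.4 and 30.3 (1.58-fold) and MRPS18C from 7.87 and 8.62 to 12.3 and 14.1 (1.60-fold). These 5 were the members past 1.5-fold upward.

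In the other direction, MRPL41 went from 146 and 145 in WT to 92.3 and 91.9 in KO cells, MRPS23 from 218 and 223 to 142 in both batches, and MRPS9 from 112 and 111 to 73.2 and 69.1, with mean log2 ratios of -0.66, -0.63 and -0.65. MRPL34, a relative of bacterial L34, followed at -0.51. MRPL23 had the lowest mean, -0.95, but rested on 1 batch: it was at 29.2 and 13.8 in WT and 9.79 and 10.96 in KO cells, a log2 ratio of -1.57 in batch 1 and -0.33 in batch 2. WT and KO are each 1 clone, so the knockout and the clone cannot be told apart.

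Among the related lists in KO cells, none of the 5 other ribosomal proteins, 12 translation factors, 6 transcription genes or 13 mitochondrial messages was past 2-fold in both batches. Over all genes tested, 3.72% were past 2-fold higher and 3.65% lower in both batches. SLIRP came close, from 324 and 332 to 641 and 650 UPM (log2 0.98 and 0.97). Of 22 assembly factors RPUSD4, a pseudouridine synthase, was lower (92.7 and 97.2 to 20.4 and 32.2), and TFB1M, the methyltransferase of the 12S rRNA (1.63 and 6.26 to 16.6 and 14.7), and TRMT2B (12.2 and 15.5 to 33.4 and 35.02) were higher. TFB1M averaged under 1 UMI per cell over the WT batches and passed the filter only through KO cells, where it is high.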

How the data were processed

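Per the study's methods, the authors demultiplexed reads with bcl2fastq 2.20 and made the deposited count tables (UMIs per gene and well, and SMART-seq reads) with zUMIs on GRCh38, with HEK293T reads subsampled to equal depth. Batch adjustment by ComBat-seq is named for the eHAP1 data, and whether the deposited counts follow it is not given in the sources used here. Column prefixes 1 and 2 were read as the 2 batches. Spike-ins were dropped, and 99.5% or more of the gene identifiers matched GENCODE v44. The genes and lists were chosen with earlier results of these data known. The text names the 4 highest and lowest levels, the 5 largest changes each way and every called member, the 4 noisiest and quietest, and up to 3 genes of each related list.

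LAST-seq and CEL-seq2 sums were tested with edgeR 4.0.16 (filterByExpr, TMM, Benjamini-Hochberg, 0.05). These are separate libraries of 1 line, so p-values measure the spread between libraries. The fit was tested on simulated data. Other comparisons used log2 ratios of UMIs per 1000000 (0.5 UMI added, mean of at least 1 UMI) without a test. DESeq2 1.42.0, other scalings, filters and left-out libraries were alternatives. Per-library UMI totals set the precision. SMART-seq lysate was not used here.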

Additional observations from a re-analysis of the deposited data

Results flagged for a closer look

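Reads of the 3 members that stayed under 1 UMI per well were found in the SMART-seq single cells, data that entered none of the comparisons. Over the 6 HEK293T cells MRPS18A held 352 reads, MRPS18B held 218 and MRPS24 held 39, and each was read in 6 of 6 cells. The SMART-seq values are reads along the whole transcript without molecular identifiers, so they are not on the scale of the UMI counts.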

How the results depend on the processing

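With mitochondrially encoded genes left out of the total, the members' share was 0.810% in LAST-seq and 0.603% in CEL-seq2 HEK293T cells. Without scaling to depth, the median ratio of variance to Poisson was 4.37 in WT eHAP1 and 1.75 in HEK293T LAST-seq cells. WT cells thinned to 50000 UMIs gave 1.08, where thinning moves the ratio toward 1 by construction. For LAST-seq against CEL-seq2, leaving out 1 library gave 4 to 22 called members, 4 to 20 of them higher and 0 to 4 lower, where 7.59 to 22.3% of genes were called. Total UMIs gave 11 higher (6.81% of genes), and DESeq2 gave 2 lower (3.66%). Of the 25 called members, 15 to 21 were still called under the other settings that kept all libraries, and none changed sign under any setting. All settings reuse the libraries on which the members were called, so this is no separate evidence. For eHAP1 against HEK293T, the 16 members past 2-fold became 9 of 73 with TMM factors (24.5% of genes), 32 of 75 by edgeR's adjusted p (33.6%) and 7 of 73 against all 4 LAST-seq HEK293T libraries (13.9%). With the minimum count asked of both lines they became 13 of 69 (15.5%). The last 2 settings were chosen after seeing the data.

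For KO against WT, each batch alone gave 1 member past 2-fold, where 15.2 and 14.9% of genes were. With batches taken as replicates, edgeR called 34 of 76 members (29.4% of genes) and DESeq2 called 26 of 78 (22.2%), and edgeR with the batch as a replicate block for the pairing called 31 of 76 (31.8%). The error in these tests is the spread between batches, which in the members was within sampling noise. The number of libraries limits every comparison here, and folds of members under 1 UMI per well on one side are poorly set.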
